A study of Mus musculus with 4 samples.

Results

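The 10 genes described here encode ligands, receptors, Smads and a secreted antagonist of bone morphogenetic protein (BMP) signalling. They were chosen by name, as the rows of the count tables with the symbols Bmp2, Bmp4, Bmp7, Bmpr1a, Bmpr1b, Bmpr2, Smad1, Smad6, Smad7 and Nog, out of 53465 listed genes. All 10 were present under these symbols, and all 10 were among the 15766 genes that passed the filter on low counts. RNA-Seq was carried out on primary (1°) mouse oligodendroglial cells (OGCs) taken from forebrain at P2 to P4 and differentiated in culture for 3 days (3ddiff). The ctrl cells carried Zfp276 flox/flox alleles only, and the Zfp276cko cells carried Zfp276 flox/flox together with the Sox10::Cre transgene, so that the floxed alleles are shared by both genotypes. Each genotype had 2 libraries, and each library came from a separate culture of cells from 3 mice. Sox10::Cre recombines the floxed exons in cells that express Sox10, which in the CNS are OGCs, and not in other cells that such a culture still holds after shake-off and microglial depletion. By the study's methods, the mice used for these cultures also carried a Cre-dependent tdTomato reporter at Rosa26, which served to identify Zfp276cko pups, and their background was a mix of C3H and C57Bl/6J.

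BMPs are secreted dimers that bind complexes of type I and type II serine/threonine kinase receptors. The activated type I receptor phosphorylates the receptor Smads Smad1, Smad5 and Smad9, which enter the nucleus with Smad4 and activate target genes, among them the Id genes and the genes of the inhibitory Smads Smad6 and Smad7. Noggin and other secreted antagonists bind the ligands and keep them from the receptors. In the oligodendroglial lineage, BMP signalling is known as a brake on differentiation that favours an astrocytic fate, and Id proteins retain the basic helix-loop-helix partners that precursors need for maturation.

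Counted reads per library ranged from 21068322 to 26599809, and values below are normalized counts, which are counts scaled to the mean effective library size of the 4 libraries. For the comparison of genotypes, the quasi-likelihood test of edgeR was run over all 15766 genes with Benjamini-Hochberg adjustment. Calls required an adjusted p no greater than 0.05 together with a log2 fold change of 0.6 or more in size and, on average, 20 or more normalized counts. The ctrl libraries differed far more from each other than the Zfp276cko libraries, with a coefficient of biological variation (spread relative to the mean, counting error removed) of 0.354 against 0.0480. This inequality bears on every p-value given here. Zfp276 itself had 1648 and 2230 normalized counts in the ctrl pair, against 490 and 503 in the Zfp276cko pair, or 25.6% of the ctrl mean (log2 fold change −1.97, adjusted p = 0.0962). An exact permutation test of 2 libraries against 2 cannot give a two-sided p below 0.333 and was not used for single genes.

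No member was called by the quasi-likelihood test, which called 0 of the 15766 genes (0% of all tested). The smallest adjusted p among the members belonged to Bmp4 (0.117), whose transcript was lower in Zfp276cko cells, followed by Nog (0.178), which was higher. In these bulk cultures, fewer cells of a type and less RNA per cell cannot be told apart. By the unadjusted p alone (0.05 or less), 2 of the 10 were lower (20%, against 7.30% of all tested genes) and 1 was higher (10%, against 8.33%). With the p taken unadjusted and the other thresholds kept, 1 member was lower, against 3.02% of all tested genes, and 1 was higher, against 5.11%. DESeq2, at the same thresholds with its own adjusted p, likewise called Bmp4 lower (2.21% of all genes with an adjusted p were called lower) and Nog higher (2.92% were called higher). limma voom with a separate weight for each genotype called Bmp4 only, while 1.30% of all tested genes were called by it. The median log2 fold change of the 10 members was −0.042, beside −0.0013 over all tested genes, and 5 of the 10 had a value below 0. The sign of this median depended on the ctrl library left out (0.11 without replicate 1, −0.17 without replicate 2).

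Promoter windows are given for Bmp4, the ligand with the clearest difference, and for the target genes Id2 and Id3. A window is also given for Smad6, an inhibitory Smad whose libraries overlapped between the genotypes. RefSeq windows on GRCm38.p6, the build of mm10, were available here for 6 of the 10 members, but not for Bmp2, Bmp7, Nog and Smad7. The windows run from 250 bases before the annotated start to 30 bases after it. They were searched for GGCGCC, a GC-rich element known from BMP-responsive enhancers, and for GTCTAGAC, the palindromic Smad box. Both motifs read the same on either strand and do not overlap each other, and matches are printed in capitals. Bmp4 (chr14:46390640-46390919, minus strand) held neither, and Smad6 (chr9:64022030-64022309, minus strand) held the Smad box from position −4, counted from the annotated start. Id2 (chr12:25096063-25096342, minus strand) held GGCGCC from position −231, and Id3 (chr4:136143572-136143851, plus strand) held neither.
Bmp4: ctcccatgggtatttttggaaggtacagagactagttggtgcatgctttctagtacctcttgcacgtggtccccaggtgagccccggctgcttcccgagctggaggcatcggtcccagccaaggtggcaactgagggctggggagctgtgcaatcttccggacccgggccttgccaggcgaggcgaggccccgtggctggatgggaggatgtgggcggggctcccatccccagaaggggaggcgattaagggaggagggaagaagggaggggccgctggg
Smad6: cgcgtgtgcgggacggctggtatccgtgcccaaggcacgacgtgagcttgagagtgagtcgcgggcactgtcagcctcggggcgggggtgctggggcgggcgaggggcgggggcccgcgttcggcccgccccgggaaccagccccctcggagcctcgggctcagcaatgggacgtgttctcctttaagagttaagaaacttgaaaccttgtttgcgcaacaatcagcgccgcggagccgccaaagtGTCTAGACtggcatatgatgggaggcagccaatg
Id2: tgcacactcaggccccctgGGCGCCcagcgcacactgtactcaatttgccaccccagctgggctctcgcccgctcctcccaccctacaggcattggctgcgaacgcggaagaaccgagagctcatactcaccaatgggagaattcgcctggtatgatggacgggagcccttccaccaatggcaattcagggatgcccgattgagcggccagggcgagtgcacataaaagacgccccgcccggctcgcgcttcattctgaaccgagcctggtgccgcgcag
Id3: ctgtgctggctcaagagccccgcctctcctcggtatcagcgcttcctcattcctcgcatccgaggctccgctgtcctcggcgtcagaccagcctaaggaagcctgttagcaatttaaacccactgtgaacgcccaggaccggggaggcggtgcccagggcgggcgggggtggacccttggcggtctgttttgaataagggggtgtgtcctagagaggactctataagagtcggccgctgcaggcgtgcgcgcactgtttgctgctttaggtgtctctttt
In the full windows of 300 bases, which reach 50 bases past the start, GGCGCC occurred in 11.9% of all 32851 windows and GTCTAGAC in 0.213%. Among the members, Bmpr1a and Bmpr2 held GGCGCC and Smad6 alone held GTCTAGAC. Of the 39 other pathway genes with a window, 12 held GGCGCC, against 3617 of all 27025 genes with a window. Counted by window, GGCGCC lay in 2 of 8 for the members (25%) and in 13 of 46 for the other pathway genes (28.3%). The differences between these shares were not tested. A match is a run of letters and not a binding site.

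Levels between genes were compared as RPKM, which are reads scaled to the effective library size and to the kilobases of exon of each gene in the GENCODE annotation of mm10. On this scale the type I receptor Bmpr1a and the ligand Bmp4 were the most abundant members in ctrl cells, with means of 24.2 and 24.8 and overlapping libraries. Smad1 (8.33) and Bmpr2 (8.09) came next, followed by Smad7 (6.19) and Bmp7 (5.62), and within each of these pairs the ctrl libraries overlapped. They also overlapped between the pairs. In ctrl replicate 2, Smad7 (6.85) lay above Smad1 (6.74), and Bmp7 in ctrl replicate 1 (7.85) lay above Bmpr2 in ctrl replicate 2 (7.13). Nog (3.38) lay above Bmpr1b (2.30) in both ctrl libraries, and overlapped with Bmp7, which had 7.85 in ctrl replicate 1 and 3.38 in ctrl replicate 2. Smad6 (0.486) and Bmp2 (0.433) were the least abundant members, and their ctrl libraries overlapped. In Zfp276cko cells Bmpr1a (28.0) was followed by Bmp4 (12.4), Smad1 (9.93), Bmpr2 (7.42) and Nog (6.74), so that Nog stood above Smad7 (4.31) and Bmp7 (3.69) in both Zfp276cko libraries. Bmpr1b (2.36), Smad6 (0.782) and Bmp2 (0.158) were again the lowest. The Zfp276cko libraries overlapped between Bmpr2 and Nog and between Smad7 and Bmp7, and the other neighbours in this order were separate.

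**Figure D1:**
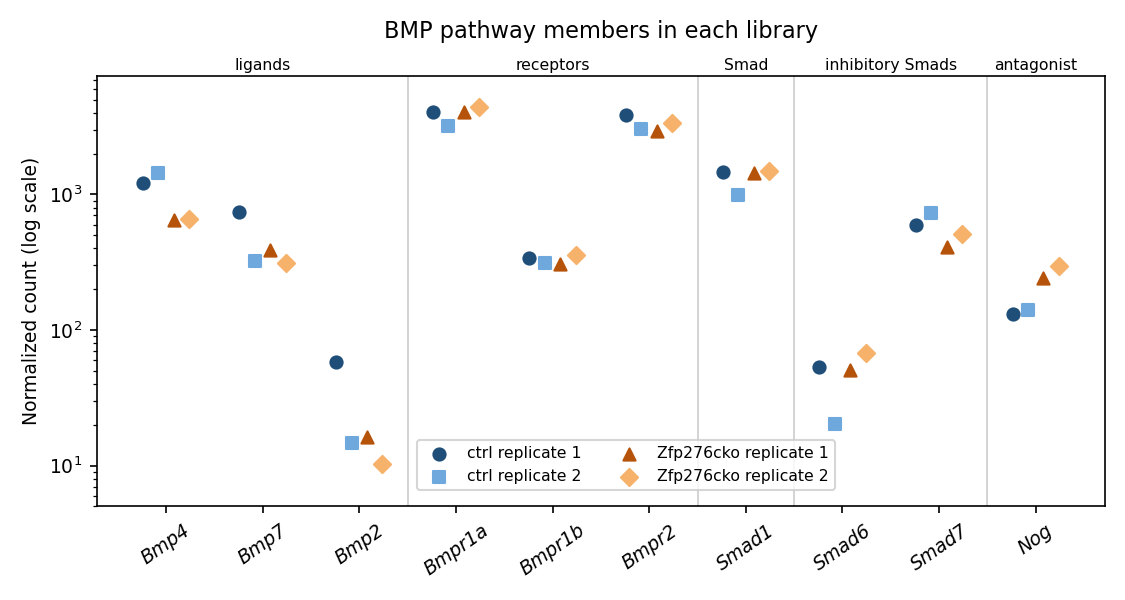
Normalized counts of the 10 members (log axis) in ctrl replicates 1 and 2 and Zfp276cko replicates 1 and 2, grouped by role, with 1 symbol per library. For Bmp4 and Smad7 both Zfp276cko symbols lie below both ctrl symbols, for Nog both lie above, and for Bmp2 and Bmp7 ctrl replicate 1 stands above the other 3 libraries.

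Bmp4 lies at chr14:46383520-46390669 (mm10, minus strand). It encodes a ligand of the BMP2/4 subgroup, and in the oligodendroglial lineage its transcript is known from committed precursors. Normalized counts were 1212 in ctrl replicate 1, 1427 in ctrl replicate 2, and 653 and 664 in the Zfp276cko pair. The groups did not overlap, and the gap between them was larger than the distance between the replicates of either genotype. Ctrl libraries averaged 1320 ± 152 (SD, n = 2), and Zfp276cko libraries averaged 659 ± 7.65 (SD, n = 2), which is 49.9% of ctrl. This corresponds to a log2 fold change of −1.002 (standard error 0.12, 95% confidence interval −1.34 to −0.66, edgeR adjusted p = 0.117). With DESeq2 the value was −1.02 (adjusted p = 9.79e-06) and limma voom with genotype weights gave −0.998 (adjusted p = 0.0379). Across all settings the log2 fold change stayed between −1.11 and −0.89, and the adjusted p of edgeR ran from 4.69e-09 without ctrl replicate 1 to 1.00 without Zfp276cko replicate 1. The noncoding gene Gm15222 is annotated on the opposite strand within Bmp4 and had 69 and 190 counts in the ctrl pair, against 82 and 89 in the Zfp276cko pair. The strand setting of the counting is not given in the sources used here, and the share of such reads in the Bmp4 values was not tested.

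For Bmp7 and Bmp2, unlike Bmp4, a single ctrl library stood above the other 3 libraries. Bmp7, at chr2:172868012-172940321 (mm10, minus strand), encodes a ligand of the BMP5/6/7 subgroup. It had 747 and 322 normalized counts in the ctrl pair, against 386 and 314 in the Zfp276cko pair. Only ctrl replicate 1 was high, and ctrl replicate 2 lay between the Zfp276cko libraries. Its log2 fold change of −0.61 ± 0.44 (standard error, edgeR adjusted p = 0.569) became 0.12 without ctrl replicate 1 and −1.11 when ctrl replicate 2 was left out. Bmp2, the closest relative of Bmp4, lies at chr2:133552159-133562885 (mm10, plus strand) and was near the lower limit of detection. Its raw counts were 49 and 13 in the ctrl pair, against 18 and 12 in the Zfp276cko pair, or 58.2 and 14.6 against 16.3 and 10.3 after normalization. Its log2 fold change of −1.44 was the largest in size among the members, but its standard error was 0.78 (adjusted p = 0.453). Without ctrl replicate 1 it was −0.14, and without ctrl replicate 2 it was −2.14.

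For the receptor transcripts the libraries of the genotypes overlapped. Bmpr1a and Bmpr1b encode type I receptors and Bmpr2 the type II receptor. Bmpr1a (chr14:34410734-34503341, minus strand) had 4072 and 3191 normalized counts in the ctrl pair, against 4028 and 4377 in the Zfp276cko pair. Bmpr1b (chr3:141837136-142169425, minus strand) had 338 and 311 against 309 and 357. Bmpr2 (chr1:59763400-59879014, plus strand) had 3847 and 3035 against 2955 and 3359. The log2 fold change was 0.21 for Bmpr1a (95% confidence interval −0.21 to 0.63), 0.04 for Bmpr1b (−0.41 to 0.49) and −0.12 for Bmpr2 (−0.55 to 0.31), with adjusted p-values between 0.570 and 0.935 from the quasi-likelihood test. With 2 libraries per genotype, any change within these intervals remained compatible with the data. Smad1, the receptor Smad among the members, lies at chr8:79338395-79399518 (mm10, minus strand). It had 1470 and 998 normalized counts in the ctrl pair, against 1447 and 1497 in the Zfp276cko pair, a log2 fold change of 0.25 (95% confidence interval −0.31 to 0.82, adjusted p = 0.610). Here ctrl replicate 2 was the low library, and the value was 0.56 without ctrl replicate 1 and −0.012 when ctrl replicate 2 was left out.

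Of the inhibitory Smads, Smad7 had a log2 fold change below 0 and Smad6 above 0, and neither was called. Smad7, which blocks type I receptors of the TGF-beta and BMP branches, lies at chr18:75367529-75395935 (mm10, plus strand). It had 591 and 733 normalized counts in the ctrl pair, against 411 and 511 in the Zfp276cko pair. The Zfp276cko libraries lay entirely below the ctrl libraries, although the gap between the nearest libraries was smaller than the distance between the replicates of either genotype. The log2 fold change of −0.52 ± 0.19 (standard error, edgeR adjusted p = 0.319) did not reach the threshold of 0.6. It was −0.67 without ctrl replicate 1, and −0.37 when either ctrl replicate 2 or Zfp276cko replicate 1 was left out. Smad6, which acts more strongly on the BMP branch and whose start holds the Smad box printed above, lies at chr9:63953076-64022059 (mm10, minus strand). It had 45 and 18 raw counts in the ctrl pair, against 56 and 79 in the Zfp276cko pair, and 53.4 and 20.3 against 50.7 and 67.9 normalized counts. Ctrl replicate 1 lay between the Zfp276cko libraries and only ctrl replicate 2 was low. The log2 fold change of 0.69 ± 0.55 (standard error, edgeR adjusted p = 0.598) was 1.55 without ctrl replicate 1 and 0.14 when ctrl replicate 2 was left out.

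Nog, at chr11:89300638-89302332 (mm10, minus strand), encodes noggin, a secreted antagonist that binds BMP2, BMP4 and BMP7. It had 131 and 141 normalized counts in the ctrl pair, against 243 and 298 in the Zfp276cko pair. The groups did not overlap, and the gap exceeded the distance between the replicates of either genotype. Ctrl libraries averaged 136 ± 7.11 (SD, n = 2), and Zfp276cko libraries averaged 270 ± 39.3 (SD, n = 2), or 199% of ctrl. This corresponds to a log2 fold change of 0.99 (standard error 0.21, 95% confidence interval 0.43 to 1.56, edgeR adjusted p = 0.178). With DESeq2 the value was 0.98 (adjusted p = 0.0233), and with limma voom 0.99 (adjusted p = 0.293). Over all settings the log2 fold change ranged from 0.84 to 1.14, and the adjusted p of edgeR from 2.67e-05 without ctrl replicate 2 to 1.00 without Zfp276cko replicate 1. Expressed per kilobase of exon, Nog amounted to 14.3% and 13.1% of Bmp4 in the ctrl pair, against 49.2% and 59.5% in the Zfp276cko pair. Relative to Bmp2, Bmp4 and Bmp7 summed per kilobase, Nog amounted to 10.4% and 11.5% in the ctrl pair, against 36.6% and 46.7% in the Zfp276cko pair. Bmp4 made up between 72.7% and 88.3% of the 3 ligands in every library.

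**Figure D2:**
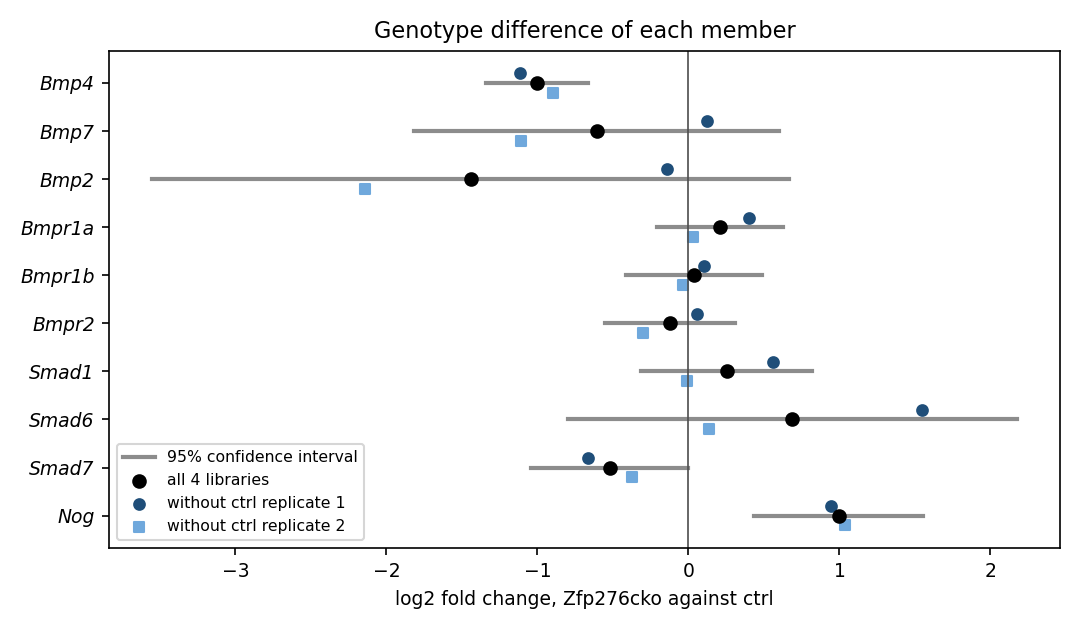
Log2 fold changes of the 10 members in Zfp276cko against ctrl cells (black points) with 95% confidence intervals from edgeR (grey lines), and the values with ctrl replicate 1 left out (dark circles) or ctrl replicate 2 left out (light squares). Bmp4 lies between −1.11 and −0.89 and Nog between 0.94 and 1.04 whichever ctrl library is left out, while Bmp7 crosses 0 and Bmp2 runs from −2.14 to −0.14.

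In 2 of the 10 members, Bmp4 and Smad7, the Zfp276cko libraries lay entirely below the ctrl libraries, against 23.7% of all tested genes, and in 1, Nog, entirely above, against 26.8%. These shares of members were below the shares of all genes. Calls depended on which ctrl library was used, because with a lone ctrl library the spread comes from the Zfp276cko pair and the lone library is assumed to vary like it. Without ctrl replicate 1, Bmp4 and Smad7 were called lower and Nog and Smad6 higher, while 16.0% of all tested genes were called. Without ctrl replicate 2, Bmp2, Bmp4 and Bmp7 were called lower and Nog higher, while 18.6% of all were called. Bmp4 and Nog were the members called in both cases.

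The remaining pathway was described by 57 further genes, of which 41 passed the filter on low counts and 16 did not. Of the 41 genes, 0 were called by the quasi-likelihood test. By the unadjusted p alone (0.05 or less), 5 were lower (12.2%, against 7.30% of all tested genes) and 9 were higher (22.0%, against 8.33%). In 11 of the 41 genes the Zfp276cko libraries lay entirely below the ctrl libraries (26.8%, against 23.7% of all tested genes), and in 16 entirely above (39.0%, against 26.8% of all). DESeq2 called 1 lower, Smurf1, against 2.21% of all genes, and 4 higher, Id1, Id2, Id3 and Atoh8, against 2.92% of all. The median log2 fold change of the 41 genes was 0.057. Among 11 further ligands only Bmp6 was tested (log2 fold change −0.97, adjusted p = 0.594), and the other ligands had at most 16 counts in any library. Bmp6 itself had at most 28, and its value was −1.62 without ctrl replicate 1 and 0.27 when ctrl replicate 2 was left out. Bmp4 was thus the ligand with the most reads in all 4 libraries, and Bmp10 had no read in any.

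Target genes of BMP signalling were the group with most calls by DESeq2, 4 of 9 higher against 2.92% of all genes, and edgeR called 0 of the 9. These 9 leave out Smad6 and Smad7, which are also BMP targets but were counted among the members. DESeq2 called neither, and their log2 fold changes went opposite ways (0.69 for Smad6 and −0.52 for Smad7). The Id genes encode inhibitors of basic helix-loop-helix factors, and Atoh8 encodes a basic helix-loop-helix factor induced by BMPs in other tissues. Id3, whose promoter is printed above, had 1505 and 1923 normalized counts in the ctrl pair, against 3357 and 3325 in the Zfp276cko pair (log2 fold change 0.96, standard error 0.15, edgeR adjusted p = 0.132). Id1 had 782 and 612 normalized counts in the ctrl pair, against 1379 and 1313 in the Zfp276cko pair (log2 fold change 0.95, standard error 0.15, edgeR adjusted p = 0.139). In Id2, the most abundant by reads of these genes, the values were 3227 and 3125 against 4570.4 and 5211 (0.62, edgeR adjusted p = 0.153). Atoh8 had 226 and 187 normalized counts in the ctrl pair, against 489 and 461 in the Zfp276cko pair (1.20, edgeR adjusted p = 0.123). For these 4 genes the Zfp276cko libraries lay entirely above the ctrl libraries, and the log2 fold changes with one or the other ctrl library left out lay between 0.59 and 1.35. Id4 (0.18), Hes1 (−0.55), Hey1 (−0.21), Msx1 (0.53) and Msx2 (−0.38) had adjusted p-values of 0.479 or more in edgeR and were not called by DESeq2. Among these, Id4 lay on the other side of 0 without ctrl replicate 1 (−0.045), as did Hey1 (0.18), and Hes1 was −0.12. The Zfp276cko libraries had more Id1, Id2, Id3 and Atoh8 reads together with fewer Bmp4 and more Nog reads. Any genes whose genotype groups do not overlap show such a joint order, and a relation between these genes was not tested. In the paper, Zfp276 lowered the Sox10-dependent activity of Id2 and Id4 regulatory regions in reporter assays, and its zinc fingers bound sites in both. Id2 and Id4 transcripts also fell there when Zfp276 was overexpressed in oligodendroglial CG4 cells. The parts of BMP signalling and of Zfp276 itself in the Id2 and Id4 values were not tested.

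Secreted antagonists other than Nog were mixed. Chordin (Chrd) had 41 and 58 raw counts in the ctrl pair, against 130 and 121 in the Zfp276cko pair, a log2 fold change of 0.96 (adjusted p = 0.246 from edgeR). Chrdl1 (0.63), Nbl1 (0.56) and Bmper (0.32) also lay above both ctrl libraries, whereas Fstl1 (−0.41) and Vwc2 (−0.65) lay below both. Leaving out ctrl replicate 1 brought Vwc2 to −0.36. Of 14 antagonists, 5 had too few counts to be tested.

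Receptor-level and intracellular genes showed the same absence of calls by edgeR. Among receptors and co-receptors, Acvrl1 (log2 fold change 0.38), Rgma (0.32) and endoglin (Eng, 1.09) lay above both ctrl libraries and Neo1 (−0.42) below both, with adjusted p-values between 0.206 and 0.342. Eng was 1.62 without ctrl replicate 1 and 0.69 when ctrl replicate 2 was left out. Smad9, a receptor Smad, had 266 and 162 raw counts in the ctrl pair, against 516 and 519 in the Zfp276cko pair (log2 fold change 0.87, adjusted p = 0.305). Leaving out ctrl replicate 1 gave 1.32 for Smad9, and leaving out ctrl replicate 2 gave 0.52, below the threshold of 0.6. Smad5 (0.22) also lay above both ctrl libraries, and Smad4 (−0.051, or 0.067 without ctrl replicate 1), the common partner, did not. Smurf1 and Smurf2 encode ubiquitin ligases that target Smads and BMP receptors, and their log2 fold changes were −0.67 (adjusted p = 0.162) and −0.57 (adjusted p = 0.208). Fkbp1a, whose protein holds type I receptors inactive, had −0.48 (adjusted p = 0.172). Bambi, a pseudoreceptor that damps signalling, had 0.84 (adjusted p = 0.347), with 0.47 when ctrl replicate 1 was left out and 1.33 when ctrl replicate 2 was. Zeb2, a Smad-binding repressor that antagonizes BMP signalling in OGCs, had −0.12 (adjusted p = 0.645).

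**Figure D3:**
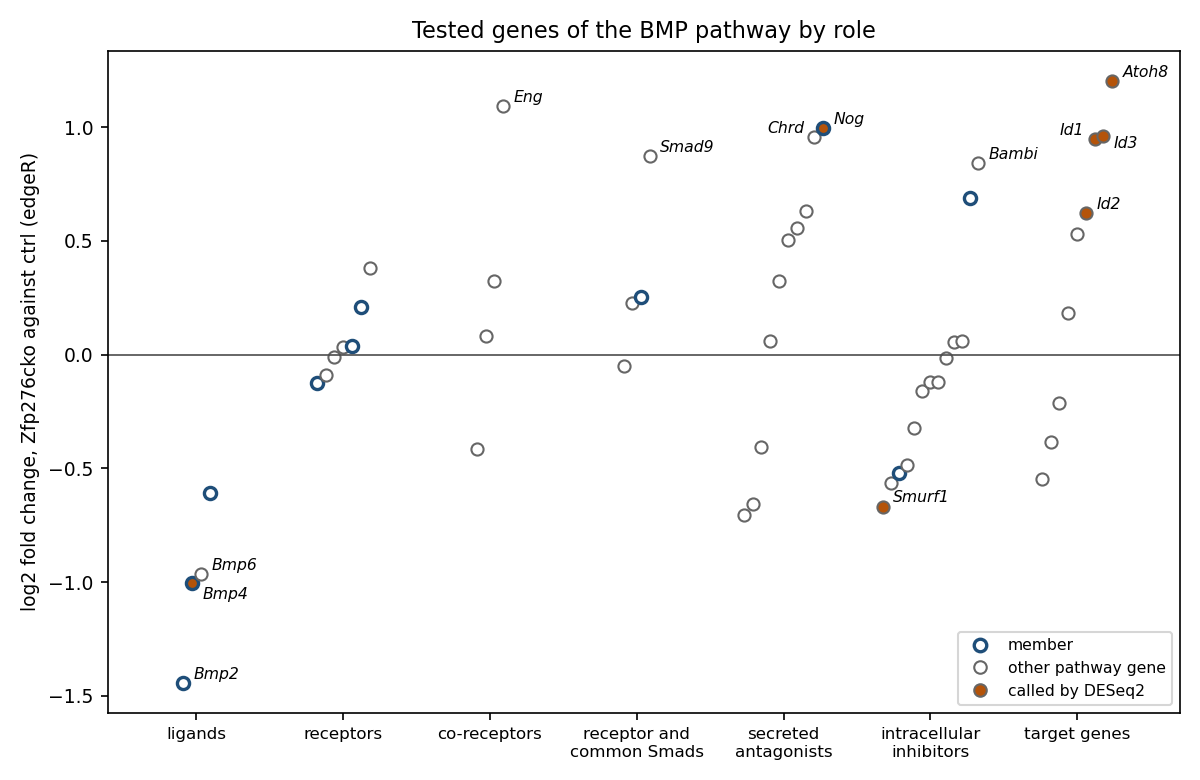
Log2 fold changes (edgeR, Zfp276cko against ctrl) of the tested BMP pathway genes by role, with the members outlined in blue, Smad6 and Smad7 placed among the intracellular inhibitors, and genes called by DESeq2 filled. All 4 tested ligands lie below 0, although Bmp7 (0.12 without ctrl replicate 1) and Bmp6 (0.27 without ctrl replicate 2) change sign with a ctrl library left out, and the filled genes are Bmp4 and Smurf1 below 0 and Nog, Id1, Id2, Id3 and Atoh8 above 0.

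The related TGF-beta arm was set beside the BMP members, and the difference between the lists was not tested. Of its 8 genes, 8 were tested, 0 were called by edgeR or by DESeq2, and 1 was lower and 1 higher at an unadjusted p of at most 0.05. The higher gene was the ligand Tgfb1 (log2 fold change 0.53, adjusted p = 0.286, and 0.33 without ctrl replicate 1) and the lower gene the receptor Smad Smad3 (−0.30, adjusted p = 0.290). The receptor Tgfbr2 changed sign with the ctrl library left out, from 1.03 without replicate 1 to −0.41 without replicate 2. In the paper, Zfp276 lowered the Sox10-dependent activity of a Tgfb2 regulatory region, and Tgfb2 transcripts fell in CG4 cells overexpressing Zfp276. Here Tgfb2 had 600 and 881 normalized counts in the ctrl pair, against 725 and 813 in the Zfp276cko pair. Its log2 fold change was 0.054 (edgeR adjusted p = 0.934), with −0.19 without ctrl replicate 1 and 0.35 without ctrl replicate 2.

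Markers of the cell types such cultures can hold were set beside the members. The 11 markers of oligodendroglia were all expressed, and their summed normalized counts were 348806 and 462555 in the ctrl pair, against 239722 and 242869 in the Zfp276cko pair. All 11 had log2 fold changes below 0, 9 lay below both ctrl libraries, against 23.7% of all genes, and 8 were called lower by DESeq2, against 2.21% of all. Bmp4 and Smad7 shared this order of genotypes, and Nog had the opposite order. The part of the oligodendroglial cells in these values was not tested. Of 10 markers of fibroblasts and mural cells, 9 were tested and 9 had log2 fold changes below 0, with Vtn at or under 2 counts in all libraries. This direction rested on ctrl replicate 1, since without it the median went from −2.84 to 0.15 and, of the 9, only Col1a1, Acta2 and Cspg4 had a value below 0. Their sum was 11768 and 4394 in the ctrl pair, against 2650 and 2461 in the Zfp276cko pair. Without Cspg4, which is also an oligodendroglial marker and was set aside after the values were seen, it was 8959 and 476 in the ctrl pair, against 350 and 284 in the Zfp276cko pair. Col1a1, a collagen chain of fibroblasts, had 2522 normalized counts in ctrl replicate 1 and between 49.0 and 74.2 in the other libraries. Ctrl replicate 1 was also the high library for Bmp2 and Bmp7. The part of these cells in the Bmp2 and Bmp7 values was not tested. For Bmp4 and Nog the differences without ctrl replicate 1 were −1.11 and 0.94.

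Other markers differed in other ways. The 12 microglial markers summed to 55934 and 28756 in the ctrl pair, against 39454 and 41200 in the Zfp276cko pair, and the 10 astrocyte markers to 37730 and 29112 against 34880 and 33148. In both lists the Zfp276cko libraries lay between the ctrl libraries, with median log2 fold changes of 0.0035 and 0.16. These medians changed sign with the ctrl library, being 0.51 for microglia and −0.12 for astrocytes without replicate 1, against −0.37 and 0.60 without replicate 2. The 10 neuronal markers summed to 3456 and 12233 in the ctrl pair, against 10597 and 11300 in the Zfp276cko pair, ctrl replicate 1 being the low library, and the median was −0.56 without that library and 2.90 without ctrl replicate 2. Of 8 endothelial markers, 4 were tested, and the sum lay between 185 and 302 in all libraries. The part of these cells in the values of the members was not tested.

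**Figure D4:**
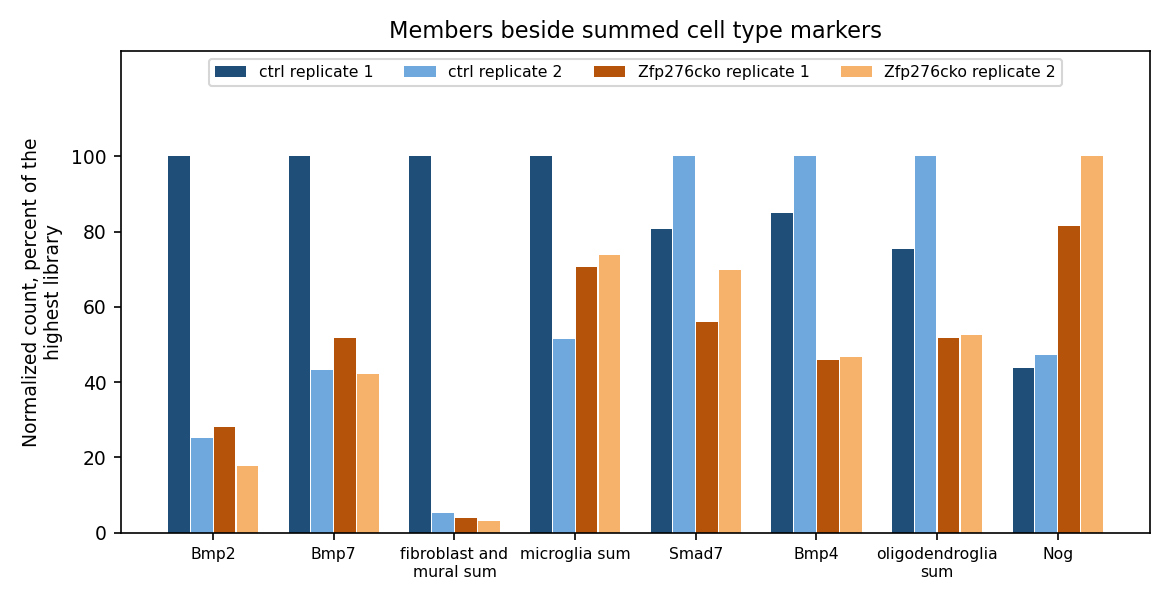
Normalized counts of Bmp2, Bmp7, Smad7, Bmp4 and Nog beside the summed markers of fibroblasts and mural cells (without Cspg4), microglia and oligodendroglia, each as percent of its highest library, with 1 bar per library. Bmp2, Bmp7 and the fibroblast and microglial sums peak in ctrl replicate 1, Bmp4, Smad7 and the oligodendroglial sum peak in ctrl replicate 2, and Nog peaks in Zfp276cko replicate 2.

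Among all tested genes, the 3 with a profile most like that of Bmp2, the member with the largest log2 fold change, were Adamts2, Col5a2 and Masp2. Likeness was the root-mean-square difference of log2 normalized counts centred on each gene's mean over the 4 libraries, and it was 0.140, 0.155 and 0.172. Col5a2, a collagen chain, had 1101 and 277 normalized counts in the ctrl pair, against 247 and 209 in the Zfp276cko pair, and Adamts2, a procollagen protease, had 76.0 and 15.8 against 22.6 and 12.03. Masp2 had 170 and 40.5 normalized counts in the ctrl pair, against 40.7 and 22.3 in the Zfp276cko pair. Ctrl replicate 1 was the high library in all 3, as in Bmp2, which follows from their choice by likeness to Bmp2.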

How the data were processed

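The authors sequenced stranded mRNA libraries of 4 cultures, mapped the reads to mm10 with STAR 2.5.4a and deposited raw counts of uniquely mapped reads per gene symbol, without normalization. The counter is HTSeq on Ensembl genes in the study's methods and featureCounts 1.5.1 in the submitters' processing notes, and the strand setting is not given in the sources used here. Groups were taken from the sample labels. Genes kept by filterByExpr were normalized with TMM and compared between genotypes over all 4 libraries with edgeR 4.0.16 (quasi-likelihood test, R 4.3.3, Benjamini-Hochberg adjustment), without further covariates. DESeq2 1.42.0 and limma 3.58.1 (voom) were alternatives, as were other size factors and filters, a replicate block, an unadjusted p, an adjusted p alone, and each library left out. The fits were also run on simulated counts with known changes. Both genotypes had the same spread there, so these runs cannot tell how the fits behave under the unequal spread of these data. The members and gene lists were chosen with earlier results of these data known, and so were the rules. All 10 members were named, other genes came from the lists, and Zfp276 served as a check of the labels. Genes most like a member were sought for the member with the largest fold change only, with 0.5 added to the normalized counts. Gene positions and exon lengths came from the GENCODE annotation of mm10 and promoters from RefSeq. Depth limits Bmp2 and Smad6, which had 12 to 79 counts per library. The p-values measure the spread between 2 cultures per genotype.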

Additional observations from a re-analysis of the deposited data

How the results depend on the processing

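With edgeR, 0 members were called lower and 0 higher, and this held with the size factors of DESeq2, without a filter, with at least 10 counts in every library, and with the adjusted p alone. With the replicate number as a block, the counts were also 0 lower and 0 higher. The replicate numbers of the genotypes share no stated source, and the deviations of same-numbered libraries had a correlation of −0.00502 over genes. DESeq2 called 1 member lower and 1 higher, as did an unadjusted p with the other thresholds kept, and limma voom with genotype weights called 1 lower. Of the other BMP pathway genes, DESeq2 called 1 lower and 4 higher, and limma voom called 1 higher. An unadjusted p with the other thresholds kept gave 1 lower and 7 higher. Leaving out each library in turn gave 0 to 3 members lower and 0 to 2 higher, 0 to 3 other pathway genes lower and 0 to 8 higher, and 0 to 1 genes of the TGF-beta arm higher and 0 lower. Without either Zfp276cko library, 0 genes of these lists were called, and the lone library is then assumed to vary like the ctrl pair. Signs depended on the library left out for Bmp7 (−1.11 to 0.12), Bmpr1b (−0.066 to 0.14), Bmpr2 (−0.30 to 0.058) and Smad1 (−0.012 to 0.56). Of all values of single members under these alternatives, 102 kept direction and side of the threshold, 13 passed it only under the alternative and 5 changed sign. The cause was not tested.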
